A study of Mus musculus with 24 samples.

Results

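A set of 9 genes linked to frontotemporal dementia and amyotrophic lateral sclerosis (ALS) was followed in mouse microglia, the resident macrophages of the brain: Tardbp, C9orf72, Tbk1, Chmp2b, Vcp, Ubqln2, Tia1, Hnrnpa1 and Hnrnpa2b1. They were taken by symbol, as 9 of the 56980 genes of the deposited table, and all 9 were among the 14090 genes that passed a filter on low counts. The study asked how loss of Grn, the progranulin gene, and the load of lipofuscin, an autofluorescent lysosomal residue, bear on the microglial transcriptome. Its 24 libraries came from 12 mice aged 19 months, 6 Grn-/- (GrnKO) and 6 Grn+/+ (WT), all on the C57Bl/6J background and all carrying the hTfRmu/hu knock-in, so that the controls carried it too. Each animal gave a library of 1000 CD11b+CD45+ cells with high autofluorescence and another of 1000 cells with low autofluorescence, which makes 4 groups of 6 libraries: GrnKO high, WT high, GrnKO low and WT low. Actinomycin D and anisomycin, inhibitors of transcription and translation, were present during dissociation of the brains. Of the 6 animals of each genotype, 3 were labelled male and 3 labelled female.

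Mutations in the human forms of these genes cause or are associated with frontotemporal dementia, ALS or related multisystem disease, as does loss of progranulin. Their products fall into 2 broad sets. One set handles RNA: TDP-43 (Tardbp) and the hnRNP proteins bind and process nuclear transcripts, and TIA-1 gathers stalled transcripts into stress granules. The other set clears protein and membrane through autophagy, the lysosome and the proteasome. Of these, progranulin itself acts in the lysosome. In microglia, C9orf72 and Tbk1 also bear on inflammatory signalling.

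Grn followed the genotype labels in every library, at 0.520 to 20.3 CPM (counts scaled to library size) in the 12 GrnKO libraries, against 439 to 1477 CPM in the 12 WT libraries. Libraries held 25085678 to 46759864 estimated counts in GrnKO high, 20699117 to 42163432 in WT high, 20265530 to 46342604 in GrnKO low and 12915578 to 38365567 in WT low. All 12 microglial markers were detected, and their summed level was 38114 to 47069.7 CPM in GrnKO high, 24797 to 45727 CPM in WT high, 29255 to 36783 CPM in GrnKO low and 15848 to 37286 CPM in WT low. Both libraries of WT animal 1 stood apart in mitochondrial transcripts, at 7.91% in the high library and 9.70% in the low one. The other 22 held 1.46% to 2.96%. Choroid plexus markers were highest in 4 libraries: WT low of animal 9 (82943 CPM), GrnKO low of animal 8 (28820 CPM), and WT low and WT high of animal 1 (25848 and 20894 CPM). The next library held 2005 CPM. Main results are given with and without animal 1, and some also without these 4 libraries. Markers of other cells also moved with the groups: the 8 neutrophil markers summed to 26.1 to 3513 CPM in GrnKO high and 14.5 to 2818 CPM in WT high, whereas GrnKO low had 3790.4 to 31839.8 CPM and WT low 1644 to 22122 CPM. The sum of the 5 erythrocyte markers ran from 54.5 to 37593 CPM over the GrnKO low libraries and from 4.68 to 37.8 CPM over the WT low ones. The 12 astrocyte markers summed to 182 to 366 CPM in GrnKO low, below every WT low library at 380 to 2051 CPM, and the 7 monocyte markers to 41.6 to 156 CPM in the high libraries, below every low library at 348 to 2027 CPM. Their part in the results below was not tested, and in bulk libraries fewer cells of a type and less RNA per cell cannot be told apart. The sex labels went against the sex-chromosome transcripts in all 24 libraries, with Xist at 701 to 2273 CPM in animals labelled male and 1.01 to 2.21 CPM in animals labelled female. Transcripts of 4 genes of the Y chromosome together made up 0.275 to 1.08 CPM in animals labelled male and 60.4 to 119 CPM in those labelled female.

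The stretches upstream of the start of Chmp2b and Tardbp are shown because these 2 genes had the lowest unadjusted p-values of the 9 in the low-bin genotype comparison. Both are RefSeq sequences of GRCm38.p6 on the minus strand, from chr16:65562763-65563012 for Chmp2b and chr4:148627085-148627246 for Tardbp, the second ending where the longest annotated transcript begins. Capitals mark the GC box GGGCGG, searched on both strands. The E-box core CACGTG, the ETS core CCGGAA, the CCAAT box and the TATA box TATAAA were searched too and were not in either stretch.
Chmp2b: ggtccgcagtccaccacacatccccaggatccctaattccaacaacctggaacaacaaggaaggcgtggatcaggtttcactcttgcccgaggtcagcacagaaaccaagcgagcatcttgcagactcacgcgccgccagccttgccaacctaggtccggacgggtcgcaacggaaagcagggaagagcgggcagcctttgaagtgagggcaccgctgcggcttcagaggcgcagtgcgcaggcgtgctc
Tardbp: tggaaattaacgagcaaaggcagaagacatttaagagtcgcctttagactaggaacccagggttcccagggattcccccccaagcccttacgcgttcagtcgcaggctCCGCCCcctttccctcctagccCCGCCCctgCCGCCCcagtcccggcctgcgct
The Tardbp stretch held 3 GC boxes, read as CCGCCC on the strand shown, and the Chmp2b stretch held none of the 5 motifs. Upstream windows of 250 bases were given for 8 of the 9 genes, in 9 windows. That of Tardbp, chr4:148626997-148627246, runs past the stretch shown into the longest annotated transcript. The GC box was in 4 of these 9, against 32.7% of all 32851 windows of that length, and CCAAT in 4, against 33.8%. CCGGAA was in 2, against 12.0%, TATAAA in 1, against 12.4%, and CACGTG in 0, against 6.02%. Hnrnpa2b1 gave 2 overlapping windows, which were both of those with CCGGAA and 2 of the 4 with CCAAT. The member windows had a median of 59.6% G and C, against 52.4% over all windows. A match describes letters in a window and is not evidence of binding.

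None of the 9 genes passed an adjusted p of 0.05 in any of the 8 comparisons tested with edgeR's quasi-likelihood test. The fit of the 24 libraries, used for the bins and the interaction, did not pair the 2 libraries of an animal. Values of a paired fit are given below for Chmp2b and Tardbp, and in the last section for C9orf72 and Ubqln2. In the low bin, GrnKO against WT, 0 of the 9 were called, where 0.326% of all tested genes were, and 2 of the 9 had an unadjusted p below 0.05, where 10.2% of all tested genes did. In the high bin the counts were 0 of 9 (background 0.163%) and 0 of 9 unadjusted (6.3%). High against low gave 0 of 9 in GrnKO animals (background 0.206%), 0 of 9 in WT animals (0.248%) and 0 of 9 over all animals (1.31%), with 1, 1 and 2 genes at an unadjusted p below 0.05 (7.82%, 8.25% and 11.2% of all genes). With the 2 libraries of each animal summed, GrnKO against WT gave 0 of 9 (background 0.246%) and 1 unadjusted (8.46%). The interaction of genotype and bin gave 0 of 9 and 0 unadjusted, where it also called 0% of all genes and 5.24% had an unadjusted p below 0.05. DESeq2's Wald test and limma-voom also called 0 of the 9 in each comparison in which they were run. In no comparison of genotype or bin did the 2 groups of 6 libraries of any of the 9 genes stand fully apart, where 1.16% (low-bin genotype), 1.07% (high-bin genotype), 1.41% (high against low in GrnKO) and 0.681% (high against low in WT) of all tested genes did so. No gene of the 9 moved one way between the bins in all 12 animals (background 0.987%) or in all 6 WT animals (6.3%).

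**Figure D1:**
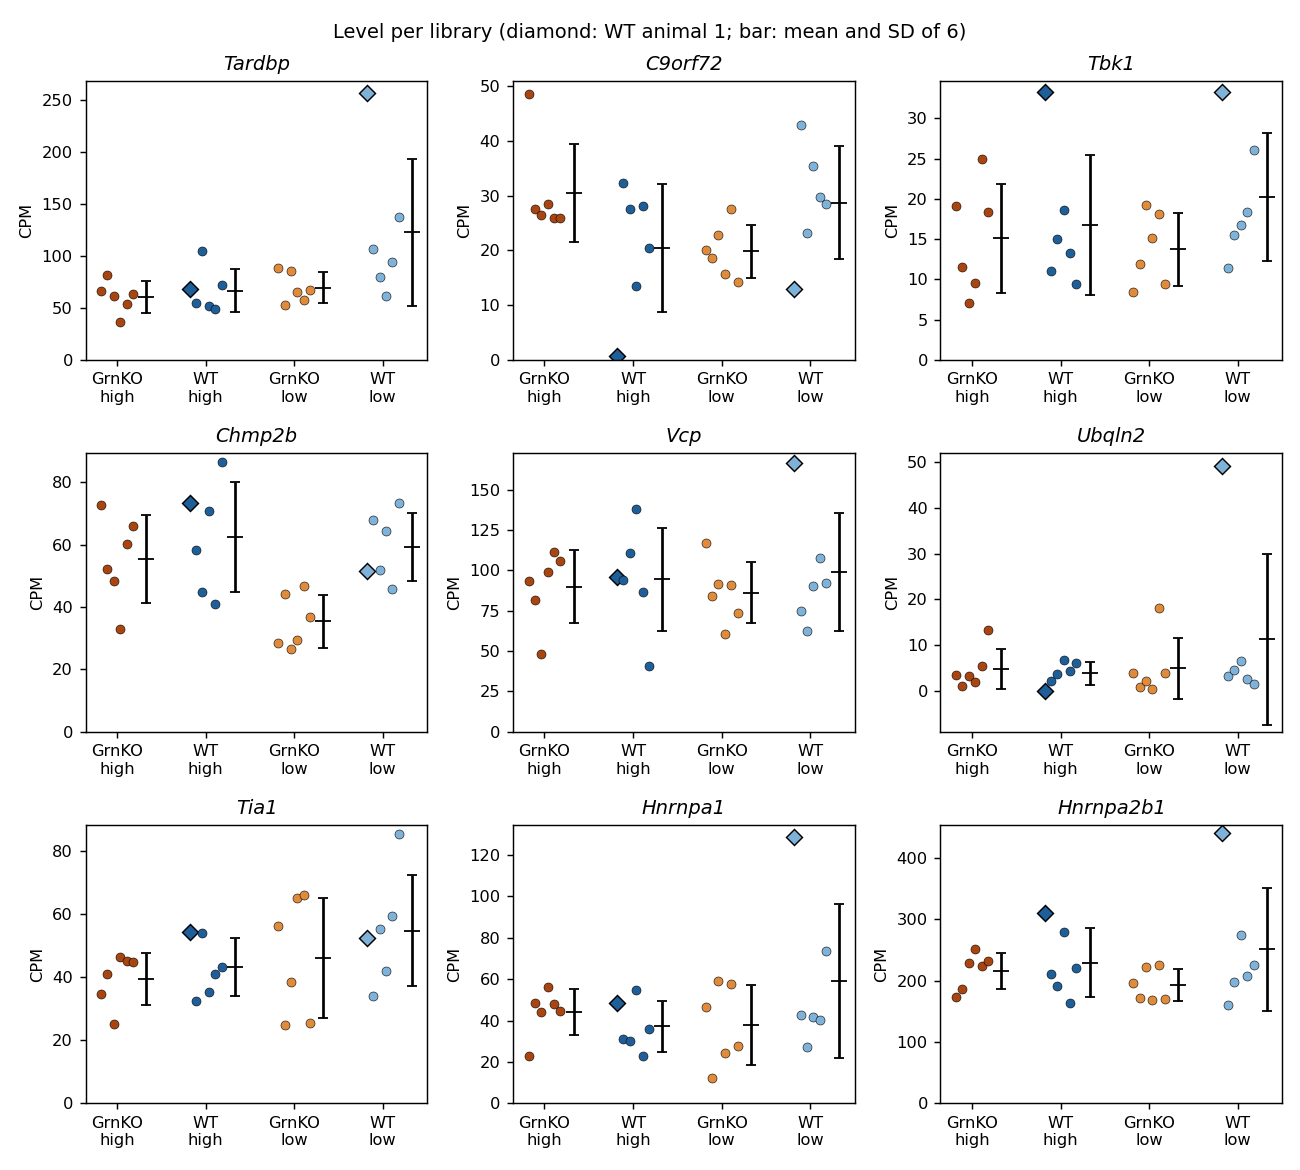
CPM of each of the 9 genes in every library, 1 panel a gene, with the 4 groups from left to right (GrnKO high, WT high, GrnKO low, WT low). Points are libraries, diamonds those of WT animal 1, and bars the mean and SD of 6. Chmp2b lay lowest in GrnKO low, at 26.6 to 46.7 CPM, and the low library of WT animal 1 topped 5 of the 9 panels.

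Chmp2b encodes a subunit of ESCRT-III, the complex that bends and cuts membrane when endosomes form internal vesicles and when autophagosomes close. In the low bin it lay at 26.6, 33.2 and 46.7 CPM (lowest, median and highest of 6) in GrnKO, against 45.9, 58.1 and 73.4 CPM in WT. Of the GrnKO low libraries 5 of 6 lay below every WT low library, so the groups overlapped by 1 library. The log2 fold change was -0.73 (SE 0.23, 95% interval -1.21 to -0.25), with an unadjusted p of 0.00430 and an adjusted p of 0.197 in edgeR's quasi-likelihood test. This was rank 308 of the 14090 genes by p. In the high bin Chmp2b lay at 33, 56.2 and 72.8 CPM in GrnKO, against 40.8, 64.4 and 86.4 CPM in WT, a log2 fold change of -0.15 with an interval of -0.63 to 0.33. The groups there overlapped over most of their range.

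Within GrnKO animals Chmp2b was higher in the high library than in the low library of the same animal in 6 of 6, where 6.63% of all tested genes moved one way in every GrnKO animal. Means were 55.4 ± 14.1 CPM in GrnKO high and 35.4 ± 8.58 CPM in GrnKO low (SD, n = 6 each). The log2 fold change was 0.66 (SE 0.23, interval 0.18 to 1.14), with an adjusted p of 0.351 in edgeR. This fit did not pair the libraries of an animal. In a paired fit, with the animal as a block, the value was 0.63 (interval 0.18 to 1.09, unadjusted p 0.00909, adjusted p 0.330 in edgeR). In WT animals the high library was above the low one in 3 of 6, and the log2 fold change was 0.08 (interval -0.40 to 0.55). The difference between these 2 effects, the interaction, was 0.58 (SE 0.33, interval -0.09 to 1.26, adjusted p 0.993 in edgeR), so the lipofuscin effect was not shown to differ by genotype. Across both genotypes Chmp2b was higher in the high library in 9 of 12 animals. Its all-animal log2 fold change was 0.37 (SE 0.16, interval 0.03 to 0.71, unadjusted p 0.0338, adjusted p 0.382 in edgeR). The paired fit put it at 0.34 (interval 0.02 to 0.66). Leaving out animal 1 moved the low-bin genotype value to -0.74 (adjusted p 0.144 in edgeR, with a range of 0.060 to 0.450 over the 21 alternatives), and that of the high against low bin in GrnKO to 0.66.

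**Figure D2:**
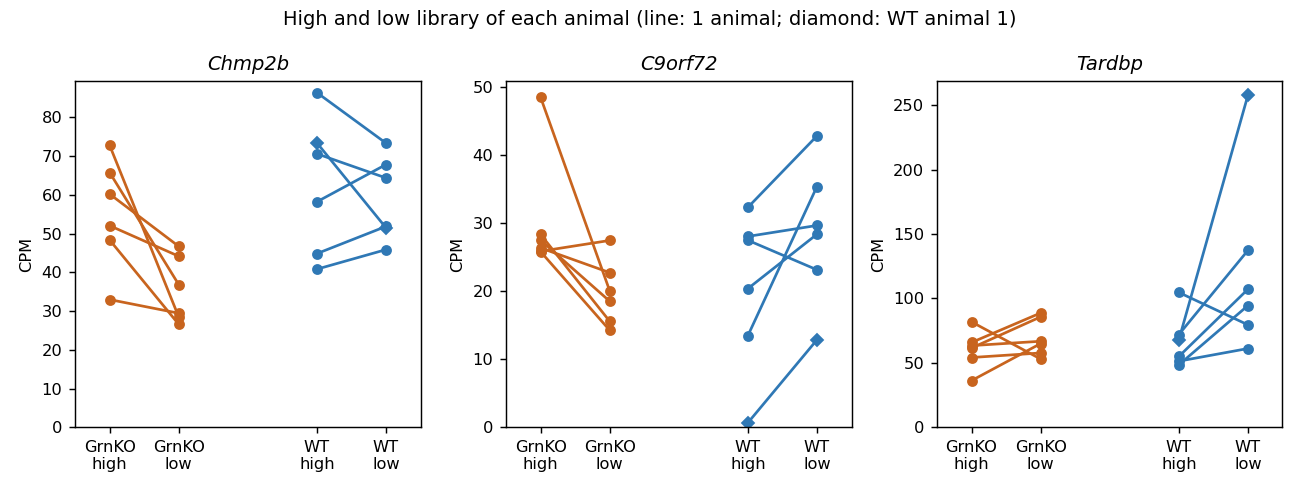
CPM of Chmp2b, C9orf72 and Tardbp in the high and low library of each animal, GrnKO animals at the left and WT animals at the right of each panel. A line joins the libraries of 1 animal and diamonds mark WT animal 1. Chmp2b was higher in the high library in 6 of 6 GrnKO animals and Tardbp lower there in 10 of 12 animals.

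Tardbp encodes TDP-43, a nuclear RNA-binding protein that represses cryptic exons and forms the inclusions found in most ALS and in frontotemporal dementia with GRN mutations. In the low bin it lay at 53.0, 65.9 and 88.8 CPM in GrnKO, against 61.2, 101 and 258 CPM in WT. Of the GrnKO low libraries 2 of 6 lay below every WT low library, and the highest WT value was that of animal 1. The log2 fold change was -0.81 (SE 0.27, interval -1.38 to -0.25), with an unadjusted p of 0.00644 and an adjusted p of 0.228 in edgeR. Without animal 1 it was -0.49 (adjusted p 0.453 in edgeR, range 0.104 to 0.520 over the alternatives). In the high bin Tardbp lay at 36.3, 62.5 and 81.8 CPM in GrnKO, against 48.5, 61.4 and 105 CPM in WT, a log2 fold change of -0.12 (interval -0.68 to 0.44).

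The high library held less Tardbp than the low one in 10 of 12 animals, 5 of each genotype. Over all animals the log2 fold change, high over low, was -0.53 (SE 0.19, interval -0.93 to -0.13, unadjusted p 0.0111, adjusted p 0.241 in edgeR). In WT animals it was -0.87 (interval -1.44 to -0.31, adjusted p 0.241) and in GrnKO animals -0.18 (interval -0.74 to 0.38, adjusted p 0.997). Without animal 1 the WT value was -0.55 (adjusted p 0.514 in edgeR, range 0.0772 to 0.829 over the alternatives), and the all-animal value -0.37. These fits did not pair the libraries of an animal. In a paired fit, with the animal as a block, the all-animal value was -0.50 (interval -0.88 to -0.11). With both bins summed, the genotype value was -0.48 (SE 0.20, unadjusted p 0.0319, adjusted p 0.525 in edgeR).

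C9orf72 encodes a subunit of the complex with SMCR8 and WDR41 that acts in autophagy and lysosome signalling, and its human form carries the repeat expansion most often found in familial ALS and frontotemporal dementia. It lay at 25.8, 27.0 and 48.5 CPM in GrnKO high and 0.678, 24 and 32.4 CPM in WT high. In the low bin it lay at 14.3, 19.3 and 27.5 CPM in GrnKO and 12.9, 29.1 and 42.9 CPM in WT. In 5 of 6 GrnKO animals, and in 1 of 6 WT animals, the high library held more C9orf72 than the low one. The genotype value was 0.58 (interval -0.40 to 1.56) in the high bin and -0.53 (interval -1.52 to 0.45) in the low bin, and the interaction 1.11 (SE 0.67, interval -0.27 to 2.49, unadjusted p 0.111, adjusted p 0.998 in edgeR). The lowest WT high library, of animal 1, held 12 counts, which counting error alone places at 0.350 to 1.18 CPM (exact 95% Poisson interval). Without animal 1 the high-bin value was 0.31, the low-bin value -0.74 (unadjusted p 0.0122, adjusted p 0.241 in edgeR) and the interaction 1.05 (unadjusted p 0.0117, adjusted p 0.662 in edgeR). The annotation places a processed pseudogene, Gm12366, on the same strand within C9orf72, with a median of 34.5 counts and at most 260 counts a library.

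Tbk1 encodes a kinase that phosphorylates autophagy receptors such as optineurin and drives interferon signalling. It ranged from 7.04 to 33.3 CPM over the 24 libraries. Its mean was 15.1 ± 6.82 CPM in GrnKO high and 16.8 ± 8.73 CPM in WT high, and 13.7 ± 4.51 CPM in GrnKO low and 20.2 ± 8.00 CPM in WT low (SD, n = 6 each). The low-bin log2 fold change was -0.56 with an interval of -1.37 to 0.25, and the high-bin one -0.13 with an interval of -0.94 to 0.67. Both libraries of WT animal 1 held the most, 33.3 CPM, and without them the values were -0.39 in the low bin and 0.14 in the high bin.

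Vcp encodes a hexameric ATPase that unfolds ubiquitinated proteins, and Ubqln2 a shuttle that carries them to the proteasome. Vcp ranged from 40.8 to 167 CPM, with a coefficient of variation of 29.2% over the 24 libraries. Its genotype values were -0.20 in the low bin (interval -0.73 to 0.33) and -0.06 in the high bin (interval -0.59 to 0.47). As folds, these intervals ran from 0.602 to 1.26 in the low bin and from 0.665 to 1.39 in the high bin. Ubqln2, an X-linked gene, held 0 to 660 counts a library, with a coefficient of variation of 164%. It was at 0 in 1 WT high library, where a count of 0 allows up to 0.169 CPM. Its low-bin value was -1.20 and its interval, -3.35 to 0.94, spans changes of several fold either way. Without animal 1, whose low library held 49.2 CPM, the value was 0.25.

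Tia1, the stress granule protein gene, lay at 39.4 ± 8.21 CPM in GrnKO high and 43.3 ± 9.17 CPM in WT high, and at 45.9 ± 19.0 CPM in GrnKO low and 54.7 ± 17.6 CPM in WT low (SD, n = 6 each). It was lower in the high library in 9 of 12 animals, with a log2 fold change over all animals of -0.27 (interval -0.67 to 0.13). Hnrnpa1 and Hnrnpa2b1 encode paralogous hnRNP proteins that bind nascent transcripts and control splicing. Hnrnpa1 ranged from 12.4 to 59.1 CPM over the GrnKO low libraries and from 27.3 to 129 CPM over the WT low ones, with a log2 fold change of -0.68 (SE 0.37, adjusted p 0.567 in edgeR). Hnrnpa2b1 ranged from 169 to 225 CPM over the GrnKO low libraries and from 161 to 439 CPM over the WT low ones, with a log2 fold change of -0.38 (SE 0.20, adjusted p 0.546 in edgeR). Both top values were those of WT animal 1, and without it the values were -0.24 for Hnrnpa1 and -0.13 for Hnrnpa2b1. In the high bin the values were 0.25 for Hnrnpa1 and -0.09 for Hnrnpa2b1.

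**Figure D3:**
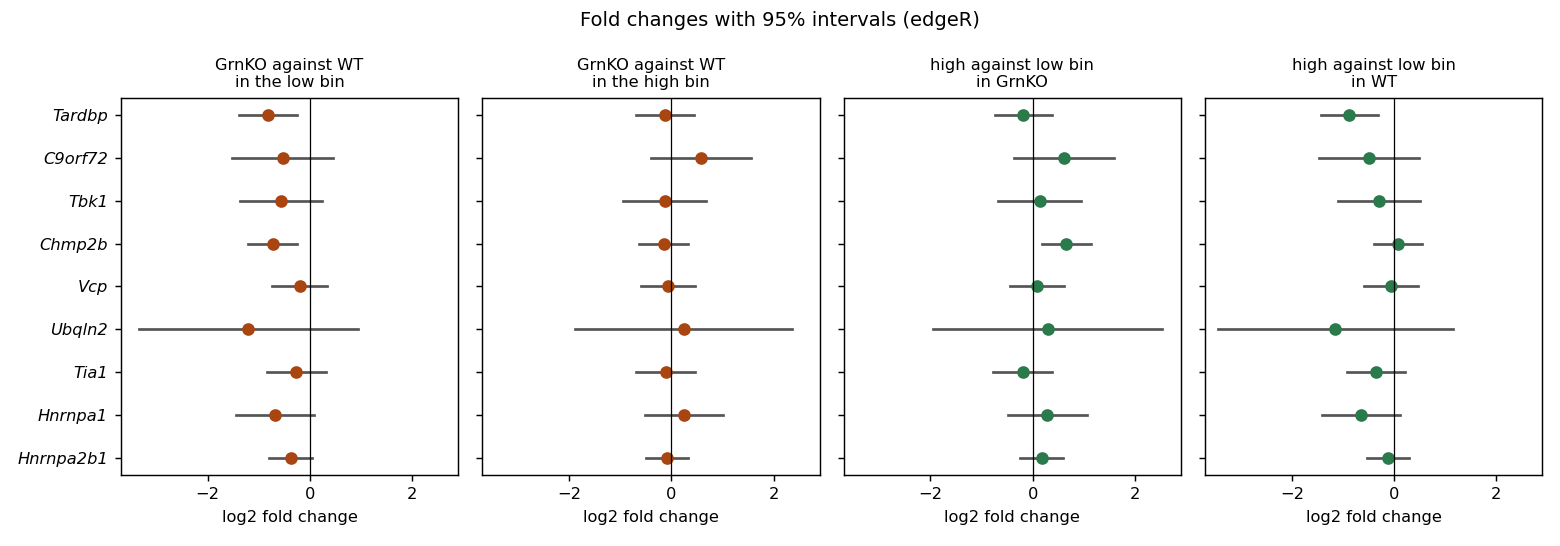
Log2 fold changes (points) with 95% intervals (lines) of the 9 genes in edgeR's fit of all 24 libraries, for GrnKO over WT in the low and high bins (orange) and high over low in GrnKO and WT (green). The fit did not pair the 2 libraries of an animal. The interval of Chmp2b lay off 0 in the low-bin genotype and GrnKO lipofuscin panels and that of Tardbp in the low-bin genotype and WT lipofuscin panels, none past adjustment.

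As a group, all 9 genes had a negative log2 fold change in GrnKO low over WT low, with a median of -0.56, against -0.03 over all tested genes. Without animal 1 the count was 8 of 9 and the median -0.29, against 0.00 over all genes. Without the 4 libraries that held most choroid plexus RNA by their markers, 7 were negative and 2 positive in that comparison. In the high bin 3 were positive and 6 negative, with a median of -0.09, and without animal 1 the majority turned, with 5 positive and 4 negative and a median of 0.01. High over low was positive in 7 of 9 genes in GrnKO animals (median 0.17) and in 1 of 9 in WT animals (median -0.35). The interaction was positive in 9 of 9 (median 0.58), and in 7 of 9 without animal 1 (median 0.36). Scaling by library size alone, in place of TMM, moved the median of all genes to -0.17 in the low bin, -0.20 between the bins in WT and -0.17 between them in GrnKO. Under it 9 of 9 were again negative in the low bin and 3 positive in the high bin, while high over low was positive in 6 of 9 in GrnKO and in 0 of 9 in WT. Over all animals high over low was positive in 4 of 9 with TMM and in 1 of 9 with library size alone, where the median of all genes was -0.18. These comparisons share libraries, so their directions are not independent. The WT low group enters the low-bin genotype comparison, the interaction, and high over low both in WT and over all animals.

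**Figure D4:**
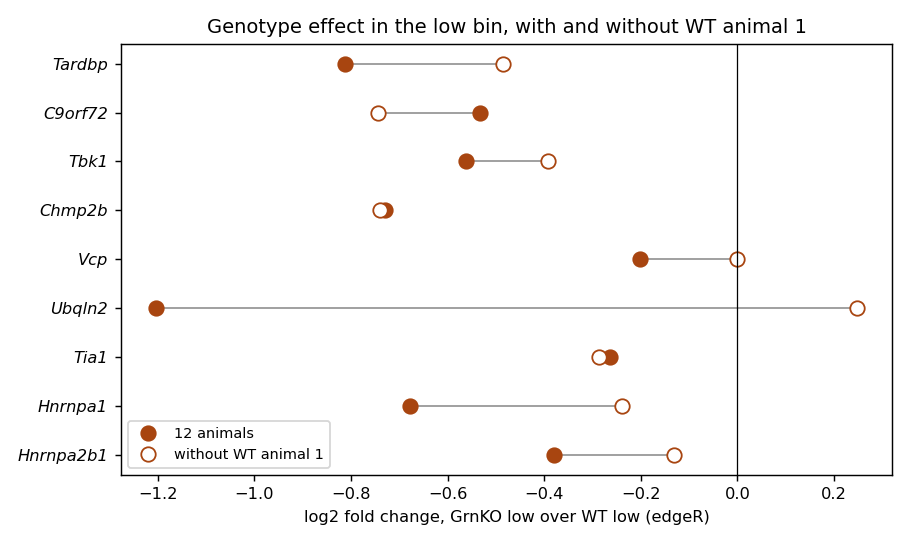
Log2 fold change of GrnKO low over WT low for each of the 9 genes with all 12 animals (filled) and without WT animal 1 (open). The value of Chmp2b was -0.73 with animal 1 and -0.74 without it, that of Tardbp -0.81 with and -0.49 without, and that of Ubqln2 -1.20 with and 0.25 without.

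The low library of WT animal 1 was the highest of all 24 for Tardbp, Hnrnpa1, Hnrnpa2b1, Vcp and Ubqln2. Over the 36 pairs of members, Pearson's r of log2 CPM centred on the 4 group means ran from -0.53 to 0.75 (median 0.20) across 24 libraries, which differ in depth and of which 2 come from each animal. Without animal 1 it ran from -0.30 to 0.65 (median 0.13) across 22 libraries. The highest pair was Hnrnpa1 with Hnrnpa2b1 in both. Among 6869 other genes (6870 for Ubqln2) with a mean of at least 10 CPM, those most like Chmp2b were Cdkn2d (r = 0.70 across 24 libraries, 0.68 without animal 1) and Tusc2 (0.62 and 0.63). For Tardbp they were H2az2 (0.74 and 0.59) and Rsf1 (0.73 and 0.68), and for Hnrnpa2b1 Ccdc90b (0.83 and 0.61) and Hnrnpdl (0.78 and 0.57). The likeness of C9orf72 to Mrpl46 was 0.95 with animal 1 and 0.49 without it, and that to Mbtps1 0.94 and 0.45. For Tbk1 the genes were Fmnl2 (0.79 and 0.71) and Mfsd14b (0.78 and 0.69), for Vcp Ranbp9 (0.75 and 0.68) and Agpat5 (0.67 and 0.57), for Ubqln2 Eif1b (0.85 and 0.57) and Nab1 (0.84 and 0.53), for Tia1 Krr1 (0.74 and 0.76) and Plcb3 (0.73 and 0.74), and for Hnrnpa1 Morf4l1 (0.81 and 0.87).

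Other genes linked to the same diseases were read from a list of 36, of which 34 were tested. Grn aside, Tyrobp, the adaptor through which TREM2 signals, rose in GrnKO low over WT low (log2 fold change 1.00, SE 0.20, adjusted p 0.0156 in edgeR) and with both bins summed (0.71, SE 0.13, adjusted p 0.0325). Trem2, a microglial lipid receptor, rose in the high bin over the low bin across all animals (0.61, SE 0.13, adjusted p 0.0153), and Dctn1, a dynactin subunit of axonal transport, fell (-1.02, SE 0.26, adjusted p 0.0434). With each animal left out in turn, Tyrobp passed in 8 of 12 fits in the low bin (0.87 to 1.11; lost without animals 3, 4, 11 or 12) and in 3 of 12 with both bins summed (0.66 to 0.77; kept without animals 1, 6 or 9). Trem2 passed in 11 of 12 (0.57 to 0.64; lost without animal 2) and Dctn1 in 3 of 12 (-1.13 to -0.87; kept without animals 1, 2 or 10). Without animal 1, Trem2 also passed in GrnKO low over WT low (0.66, adjusted p 0.00915 in edgeR, against 0.0548 with it) and in WT high over WT low (0.76, adjusted p 0.00513, against 0.0584), and Tuba4a, a tubulin gene, passed between the bins across all animals (-1.36, adjusted p 0.0268, against 0.272). Calls over all tested genes also rose without animal 1, from 46 to 116 in the low bin. They rose from 35 to 53 between the bins in WT and from 185 to 312 across all animals. With all 12 animals, 1 gene of the list rose and 1, Grn, fell in the low bin, where 0.326% of all tested genes were called. Across all animals 1 rose and 1 fell between the bins, where 1.31% of all tested genes were called. Median log2 fold changes of the list were -0.01 in the low bin and -0.04 between the bins across all animals, against -0.03 and -0.04 over all tested genes. Without animal 1 both medians turned sign, to 0.11 in the low bin and 0.05 between the bins.

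The partners of the members were read from 8 lists, none of which held a called gene in these comparisons. The members that 7 of the lists hold are left out of the counts below. Of the 23 other hnRNP genes tested, 18 were lower in GrnKO low than in WT low (median -0.38, and -0.03 over all genes). With both bins summed 19 were lower (median -0.23, and -0.04 over all genes). Without animal 1 these were 17 of 23 (median -0.26) and 15 of 23 (median -0.10). Those of lowest p with both bins summed were Syncrip (-0.66, adjusted p 0.413 in edgeR) and Hnrnph1 (-0.81, adjusted p 0.413). Of the 17 stress granule genes besides Tia1, 14 were lower in the high bin across all animals (median -0.21, and -0.04 over all genes). Without animal 1 it was 13 (median -0.22). With all animals the list was led by Atxn2 (-1.06, adjusted p 0.161 in edgeR) and Lsm14a (-0.74, adjusted p 0.284). Of the 16 ESCRT genes besides Chmp2b, 15 were higher in GrnKO high than in WT high (median 0.23, and -0.06 over all genes). Without animal 1 it was 13 (median 0.13). Across all animals Chmp5 (0.44, adjusted p 0.159 in edgeR) and Chmp3 (0.50, adjusted p 0.266) led the ESCRT list between the bins. Without animal 1 both passed in edgeR, at 0.49 (adjusted p 0.0464) and 0.60 (adjusted p 0.0459). Calls over all tested genes rose in that fit too, from 185 to 312. Scaling by library size alone moved the median of all genes to -0.17 in the low bin and -0.15 in the high bin. It moved to -0.18 between the bins and to -0.17 with both bins summed. This shift by itself adds to counts of lower genes. With it 20 of 23 hnRNP genes were lower in the low bin and 20 of 23 with both bins summed. Between the bins 16 of 17 stress granule genes were lower, and 13 of 16 ESCRT genes were higher in the high bin. Above the median of all genes lay 5 of 23 hnRNP genes in both comparisons and 15 of 16 ESCRT genes, under either scaling. For stress granule genes it was 5 of 17 with TMM and 4 of 17 with library size alone. Between the bins across all animals 12 of 16 ESCRT genes were higher with TMM and 5 of 16 with library size alone, while 12 of 16 lay above the median of all genes under both scalings.

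Lists of partners of the clearance genes, and a list of nuclear import genes, gave values on both sides of 0. With both bins summed, 46.6% of all tested genes were higher. In the C9orf72 complex list, Rab8a (0.44, adjusted p 0.486 in edgeR) and Rragc (0.57, adjusted p 0.619) had the lowest p with both bins summed, and 4 of the 9 partners tested were higher. Among 15 partners of Tbk1, Sqstm1, the autophagy receptor p62, was at 0.72 (adjusted p 0.334 in edgeR) and Mavs at 0.80 (adjusted p 0.619), with 11 higher. Among 23 Vcp cofactors, Ubxn6 (0.65, adjusted p 0.342 in edgeR) and Ubxn1 (0.40, adjusted p 0.549) led and 14 were higher. Among 12 ubiquitin shuttle and proteasome genes besides Ubqln2, Ubb was at 0.26 (adjusted p 0.518 in edgeR) and Rad23b at 0.51 (adjusted p 0.735), with 7 higher. Ddi2 of that list was at -0.97 between the bins across all animals (adjusted p 0.0722 in edgeR). Without animal 1 it was at -0.99 and passed (adjusted p 0.0227 in edgeR), where calls over all genes rose from 185 to 312. Of 13 nuclear import genes, Ranbp2 (-0.77, adjusted p 0.431 in edgeR) and Kpna4 (-0.51, adjusted p 0.549) led, and 8 were lower. Without animal 1 the genes higher with both bins summed were 4 of 9 in the C9orf72 list, 10 of 15 in the Tbk1 list, 10 of 23 Vcp cofactors and 9 of 12 shuttle genes, and 8 of 13 import genes were lower, so the majority turned for the Vcp cofactors. With library size alone 8 of 23 Vcp cofactors were higher, while 14 of 23 lay above the median of all genes, as with TMM.

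Between animals labelled male and labelled female none of the 9 genes was called, where 0.029% of all tested genes were and 4.81% had an unadjusted p below 0.05 (0 of the 9). The fold change of X-linked Ubqln2 was the widest, at 0.95 on the log2 scale (interval -0.55 to 2.44), with 0 to 49.2 CPM in libraries of animals labelled male and 0.260 to 13.2 CPM in those labelled female. The values of the other 8 ran from -0.17 for Chmp2b to 0.43 for Tbk1. Without animal 1 those of Ubqln2 and Tbk1 were 0.36 and 0.24, and those of C9orf72 (0.19), Hnrnpa1 (-0.08) and Hnrnpa2b1 (-0.07) turned sign. These directions follow the sex labels, which the sex-chromosome transcripts go against.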

How the data were processed

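RNA sequencing of 24 libraries of sorted microglia was analysed from the tables the authors deposited. Their estimated counts per gene, written to about 2 significant digits, were rounded to whole numbers; of the deposited estimated counts between 0 and 10, 8.28% were not whole (tolerance 1e-09). A deposited table of normalized values, a signal scaled by library size and the authors' factors, served only in an alternative for the interaction. The build GRCm39 and the tools R 4.5.1, edgeR 4.6.2, Salmon 1.10.1 and STAR 2.7.9a are those of the submitters' processing notes; per the labels' protocols, cDNA was made with a SMART-Seq v4 3' kit and Nextera XT. How counting used strand is not given in these sources, so reads of overlapping genes and of near-identical copies could be split. Copies were searched only by symbols that begin with that of the member. This search found annotated copies of Hnrnpa1 and Vcp, at most 4 counts a library, and would miss copies under other names.

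Here, edgeR 4.0.16 (R 4.3.3) fitted TMM-scaled counts with glmQLFit (robust) and glmQLFTest, 1 term a group plus the sex label, after filterByExpr (14090 genes). Genotype with both bins summed and the sex label were tested on sums per animal (12 animals, 13801 genes). P-values were adjusted by Benjamini-Hochberg over all tested genes and called below 0.05. The test had been planned for whole counts and was kept for rounded estimates. The quasi-likelihood test gives no SE, so each SE is the absolute log2 fold change divided by the square root of the test's F statistic. Intervals of fold changes were built from these SEs with a t quantile. CPM values use TMM-scaled library sizes, and within-animal differences use log2(CPM + 1). Alternatives used DESeq2 1.42.0 and limma 3.58.1; for the lists, the likeness values and the count of members by direction without animal 1, the lists under other scalings and without their members, and the called list genes with each animal left out, they were chosen after seeing the data. The 9 genes and all lists were chosen with earlier results of these data known. Named in the text are all 9 genes, Grn, and of each list the called genes (up to 3 of smallest p in each direction) or, with none called, up to 2 of smallest p in the genotype comparison with both bins summed or the all-animal lipofuscin comparison. Also named are the 2 genes most like each member (for Hnrnpa1, 1 of them is not reported here), and, after their values were seen, Chmp5, Chmp3, Ddi2, Trem2 and Tuba4a without animal 1.

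Libraries with the same number came from the same animal. Their deviations from the group means correlated at -0.01 to 0.32 (median 0.11, 7211 genes), and the consensus correlation was 0.09. No 2 of 60 pairs of libraries of a group held identical values. On simulated data with 200 changed genes, 8.00% of 2-fold and 67.0% of 4-fold changes were recovered for the low-bin genotype comparison (13812 and 13811 genes), 39.5% and 83.0% for the all-animal lipofuscin comparison (13823 and 13829 genes), and 20.5% and 82.0% for genotype with both bins summed (13726 and 13731 genes). The changed genes were drawn from all genes with a mean of at least 10 CPM, and Ubqln2 lay below that, at 6.13 CPM. Recovery was not measured for the 9 genes themselves. Their SEs in the low-bin genotype comparison ran from 0.20 (Hnrnpa2b1) to 1.04 (Ubqln2), against a median of 0.73 over all tested genes. Counting intervals and floors cover counting error only, since the reads carry no molecular identifiers.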

Additional observations from a re-analysis of the deposited data

Results flagged for a closer look

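In 5 of 36 combinations of gene and group, 1 library lay far from the other 5 by Dixon's criterion (critical value 0.625 for 6 libraries). Chance gives about 1 such case in 20. C9orf72 was high in GrnKO high of animal 2, at 48.5 CPM, where Hnrnpa1 was low in the same library, at 22.9 CPM. Ubqln2 was high in GrnKO high of animal 12, at 13.2 CPM, in GrnKO low of animal 10, at 18.1 CPM, and in WT low of animal 1, at 49.2 CPM.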

How the results depend on the processing

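The count of the 9 genes called was 0 in each of 171 combinations of an alternative setting with 1 of the 8 comparisons. Of the fold changes of the 9 genes, 11 turned sign by more than their standard error, none of them called before or after. Leaving out the 4 libraries that held most choroid plexus RNA by their markers (in the summed fit, without their animals), Vcp was at 0.21 in the low-bin genotype comparison, 0.25 for high against low in WT and -0.27 for the interaction, and Ubqln2 at 0.46, 0.23 and -0.43, and at 0.31 for genotype with both bins summed. Without replicate 1, Ubqln2 was at 0.25 in the low bin, 0.34 for high against low in WT and -0.24 for the interaction, and without replicate 12 at -1.07 for genotype in the high bin. With 1 animal left out its range was -2.23 to 0.25 in the low bin, -1.07 to 0.60 in the high bin, -1.65 to 0.34 in WT and -0.24 to 2.51 for the interaction. With the animal as a replicate block in a paired edgeR fit, 0 of the 9 were called, so the block changed no call of the 9. The C9orf72 interaction was then 1.51 (unadjusted p 0.0330, adjusted p 0.923). High against low in WT was -0.89 for C9orf72, against -0.49 without the block. Over all animals high against low turned from 0.06 to -0.14 for C9orf72 and from -0.43 to 0.16 for Ubqln2. Counts over all genes moved more. GrnKO against WT called 46 genes in the low bin, 30 to 116 with 1 animal left out and 21 to 358 under other settings. In the high bin it called 23 genes (8 to 50 and 18 to 284), and with both bins summed 34 (17 to 142 and 26 to 363). High against low called 35 in WT (7 to 53 and 7 to 299), 29 in GrnKO (2 to 62 and 20 to 360) and 185 over all animals (119 to 312 and 168 to 1040). The interaction called 0 genes, 329 with no filter on low counts, 71 with DESeq2's Wald test and 1 with limma-voom. The sex label called 4 (4 to 6 and 4 to 241). Of the animals left out singly, animal 1 gave the most calls in 6 of these. Scaling by library size only shifted the median of all genes to -0.17 in the low bin and -0.18 over all animals; low-bin calls were then 29 higher and 19 lower, against 38 and 8 with TMM. The low recovery of 2-fold changes, an average over genes of at least 10 CPM and not measured for the 9, limits what 0 calls can show.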
